A study of Mus musculus with 11 samples.

Results

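The genes described here encode the proteins of the cytosolic ribosome, measured in RNA-seq libraries of cultured mouse mesenchymal stem cells (MSCs, stromal cells that can form osteoblasts and adipocytes). Members were chosen by symbol, as protein-coding genes named Rps or Rpl and a number, together with Rplp0, Rplp1, Rplp2 and Rpsa. Pseudogenes and ribosomal protein S6 kinases were not taken. Of 28222 genes in the count table, 81 were members, of which 32 belong to the small subunit and 49 to the large subunit. These are 76 core genes and 5 paralogs, namely Rpl22l1, Rps27l, Rpl39l, Rpl3l and Rpl7l1, and Rpl13 was not analysed here.

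Polyadenylated RNA was sequenced in 11 libraries. Batch A held 4 libraries of MSCs from young mice of 3 to 5 months, batch B held 2 young libraries and 2 libraries of MSCs from old mice of 18 to 22 months, and batch C held 3 old libraries. No genetic change or drug is named in the labels, and all cells were cultured only at 2% oxygen in serum-containing medium. Age and batch can therefore be separated only within batch B, and the labels do not say whether replicates came from separate mice, so that p-values measure the spread between these samples, which may be technical.

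Ribosomal proteins are assembled with ribosomal RNA into the small subunit, which reads the messenger RNA, and the large subunit, which joins amino acids. Each ribosome needs the core proteins in nearly equal numbers, and their messenger RNAs are among the most abundant in growing cells. In vertebrates these messenger RNAs usually begin with a C and an unbroken run of pyrimidines, the terminal oligopyrimidine (TOP) motif. Through this motif their translation and stability respond together to growth signals, largely by way of mTOR and the RNA-binding protein Larp1.

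The pyrimidine runs are shown because they are the sequence feature that members are known to share. RefSeq promoter windows (GRCm38.p6, 250 bases before to 50 after the annotated start) were matched by symbol for 61 of the 81 members. The motif CTCTTTC, searched on the gene's strand within 50 bases of the start, was found for 12 of these 61 members (19.7%) and for 1.62% of 27025 genes with a window. A C at the annotated start followed by at least 4 pyrimidines was found for 21.3% of the members and 3.01% of all genes. A run of at least 8 pyrimidines near the start was found for 83.6% and 39.3%, and the motif CCGGAAG, searched on both strands of the whole window, for 42.6% and 9.93%. Windows of 30 bases of 7 members are given 5′ to 3′, with the pyrimidine run in capitals. Those of Rpl35, Rpl35a, Rpl36a, Rpl26 and Rpl28 hold CTCTTTC, and Rpl38 and Rpl14 are described further on.
Rpl35: gtcggccccgCCCTTTCCTCTTTCTCTCga
Rpl35a: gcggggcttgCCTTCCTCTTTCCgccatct
Rpl36a: gcggctctagCCTCTCTCTTTCCgagctgc
Rpl26: tcgcgtgtagTTCTCTTTCCTTTTgcggcc
Rpl28: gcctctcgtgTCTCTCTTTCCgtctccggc
Rpl38: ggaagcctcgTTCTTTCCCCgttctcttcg
Rpl14: gcagggcgggCCCTCTCTCTTCTCgctgag
The positions in the same order are chr2:39005119-39005148 (minus strand), chr16:33056467-33056496, chrX:134585671-134585700, chr11:68901577-68901606, chr7:4792952-4792981, chr11:114668568-114668597 and chr9:120571499-120571528 (all plus strand). Each run begins within 50 bases of the annotated start of its gene. Relative to that start, the runs of Rpl35, Rpl28, Rpl38 and Rpl14 begin at -7, -3, -2 and -8 and extend across it. Those of Rpl35a, Rpl36a and Rpl26 begin at 24, 27 and 21, past the annotated start.

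Between 11969336 and 20315934 counts were assigned per library, and the labelled cell type was checked on 8 MSC markers, all of which were detected. Pdgfra, a receptor that marks these cells, had mean levels between 118 and 276 CPM (counts scaled to a common library size with TMM factors) over the 4 groups. RNA of blood cells was also detected. The summed level of 12 blood cell markers, macrophage genes such as Lyz2, Csf1r and C1qa among them, was 621 to 1323 CPM in batch A, 368 and 739 CPM in the young and 759 and 1077 CPM in the old libraries of batch B, and 128 to 149 CPM in batch C. The 5 endothelial markers summed to at most 9.73 CPM. In bulk RNA, fewer cells of a type and less RNA per cell cannot be told apart. Library 1 of the young group in batch B stood apart from the other libraries of its batch. Its share of Col1a1, the gene with the most counts in every library, was 4.04%, against 2.24% to 2.39% in the other 3 libraries of batch B and 4.73% to 5.57% in batch A.

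The share of all counts that fell on the 81 members was lowest in batch C. In batch A, the shares were 4.86%, 4.43%, 5.17% and 5.64% (5.03% ± 0.51, SD, n = 4). In batch B, they were 5.24% and 7.53% in the young libraries (6.39% ± 1.62, SD, n = 2) and 7.26% and 7.79% in the old libraries (7.52% ± 0.369, SD, n = 2). In batch C, they were 3.09%, 2.77% and 2.77% (2.88% ± 0.185, SD, n = 3). All 3 libraries of batch C therefore lay below all other libraries, while 1 young library of batch B lay within the range of batch A and the other between both old libraries of its batch. The 95% Wilson intervals of these shares reached at most 0.0137 percentage points to either side and cover counting error only. Both subunits followed the same order. The small subunit took 2.22% ± 0.249 (SD, n = 4) of the counts in batch A and 1.18% ± 0.0712 (SD, n = 3) in batch C, and the large subunit 2.81% ± 0.262 (SD, n = 4) and 1.70% ± 0.114 (SD, n = 3). Shares were not tested between groups, since batches A and C differ in both age and batch, which cannot be told apart.

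**Figure D1:**
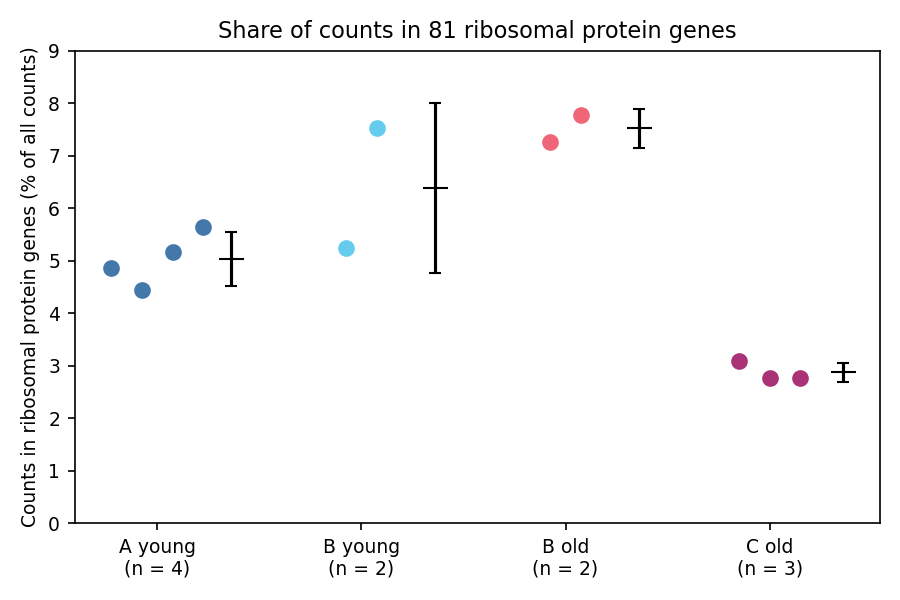
Share of all counts in the 81 ribosomal protein genes (percent, vertical axis) for each library (points) of the 4 groups, with the mean and SD of each group as a bar beside the points. The 3 batch C libraries lie between 2.77% and 3.09%, and the young libraries of batch B at 5.24% and 7.53%.

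Processed pseudogenes of these genes are numerous in the mouse, and reads of near-identical copies can be shared between them. The table held 180 ribosomal protein pseudogenes, of which 177 are named after a member, and 54 members have at least one. Their summed counts came to 1.64% to 1.87% of the members' counts in each library. The largest were those of Rps16, at 32.4% of the counts of the gene itself, and of Rpl15, at 23.9%. How the authors assigned such reads is not known, so that levels of these members are uncertain.

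Levels were compared between members as CPM per kb of the principal transcript. The highest mean over all libraries was that of Rplp1 with 3547 CPM per kb. Rplp1 encodes an acidic protein of the ribosomal stalk, which recruits elongation factors. Rps14 followed with 2363 CPM per kb and Rps12 with 2333 CPM per kb, both encoding small subunit proteins. In batch A, Rps14 stood at 2731 ± 390.0 and Rps12 at 2595 ± 342 CPM per kb (SD, n = 4), a difference below the spread between replicates. Rplp0, which anchors the stalk, was next with 2022 CPM per kb. This order depended on the transcript length used. Per kb of the longest transcript, Rplp1, Rplp0 and Rps14 ranked 1, 2 and 3, and Rps12 ranked 29.

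The 3 members with the lowest levels were paralogs. Rpl7l1 reached 29.7 CPM per kb and Rpl39l, which is best known from the testis, reached 11.6 CPM per kb. Rpl3l, known from striated muscle, had 3 counts in all libraries together and was the only member that did not pass the filter on low counts. Of the core genes, Rpl23a was the lowest with 78.3 CPM per kb. Rpl23a encodes a large subunit protein near the exit tunnel. Its reads may be shared with near-identical copies elsewhere in the genome, so that its values are uncertain.

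**Figure D2:**
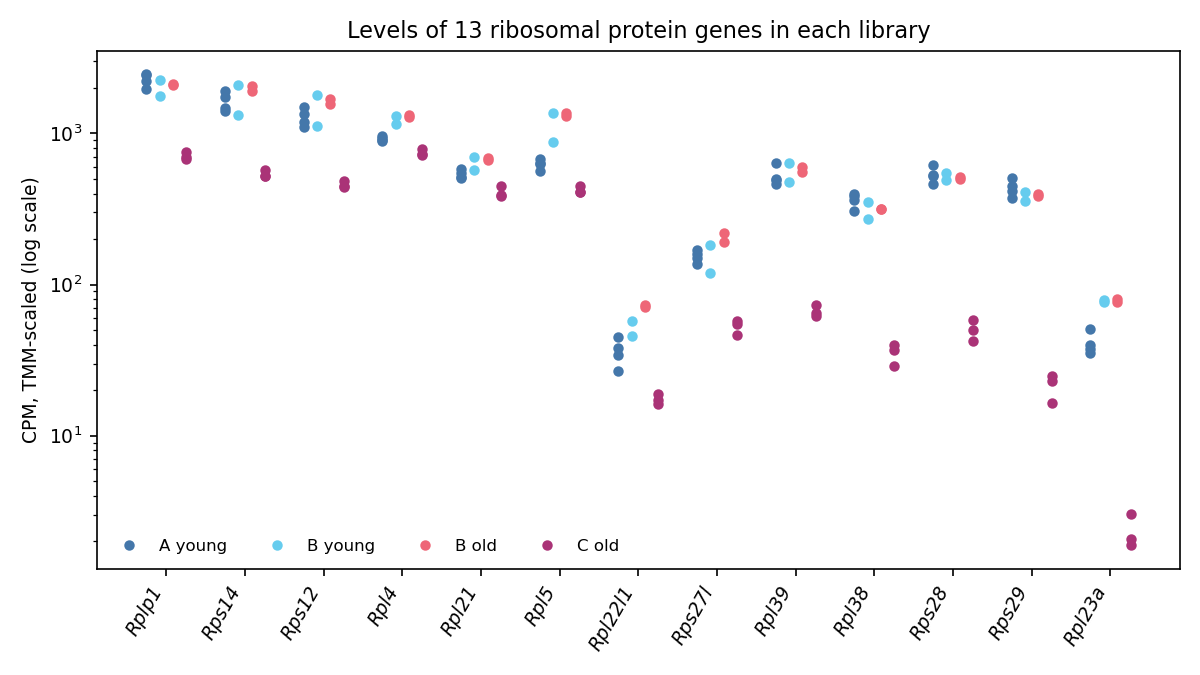
TMM-scaled CPM (vertical axis, log scale) of 13 ribosomal protein genes (horizontal axis) with each library as a point and groups in colour. The batch C points lie lowest for each of these genes, and Rpl23a, Rps29 and Rps28 are farthest from the other groups.

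Paralogs were also set against their core gene per kb of coding sequence. The level of Rps27l was 32.8% to 36.1% of that of Rps27 in batch A. In batch B, it was 34.0% and 37.4% in the young and 43.3% and 45.7% in the old libraries, and in batch C it was 60.2%, 65.0% and 63.6%. Within batch B, both old libraries thus lay above both young libraries. The proportions were highest in batch C, which holds only old libraries. They exceeded those of the old libraries of batch B, which is a difference between batches at the same age. Between batches C and A, age and batch cannot be told apart. Rpl22l1 stood at 8.42% to 12.1% of Rpl22 in batch A, at 12.8% and 13.0% in the young and 17.3% and 16.9% in the old libraries of batch B, and at 11% to 12.4% in batch C. Here the old libraries of batch C overlapped with the young libraries of batch A. Rpl39l stood at 1.57% to 1.73% of Rpl39 in batch A and at 7.04% to 11.1% in batch C. In batch B, Rpl39l was at 3.11% and 0.994% in the young and 3.18% and 2.17% in the old libraries. These ranges overlapped. Rpl7l1 stayed between 8.43% and 10.9% of Rpl7 in all libraries. These proportions are descriptions without a test.

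To ask whether the members differ with age, old and young libraries were compared with batch as a covariate in edgeR. The age effect therefore rests on the 4 libraries of batch B, while the spread was estimated over all 11 libraries. No member was called at an adjusted p under 0.05, that is 0 of 80 tested, where 0.694% of all 16132 genes were called higher and 1.54% lower in old cells. At an unadjusted p under 0.05 there were 3 members, and limma-trend and DESeq2 also called 0. The log2 fold change was positive for 76 of 80 members, with a median of 0.19 against 0.00 over all genes. With the correction for transcript length and GC content, it was positive for 64 members, with a median of 0.11. Both old libraries lay above both young libraries of batch B for 9 members (11.2%) and below for none, whereas 39.8% of all genes tested were separated in either direction.

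The 3 members with the smallest p-value were 2 paralogs and Rpl14. Rpl22l1 (chr3:28805436-28807424, GRCm38), which can replace Rpl22 in the large subunit, had 45.6 and 57.4 CPM in the young and 71.2 and 73.2 CPM in the old libraries of batch B. Its level was 26.6 to 44.9 CPM in batch A and 16.2 to 18.8 CPM in batch C. Both old libraries of batch B were the highest of all, and the old libraries of batch C the lowest. The batch-adjusted log2 fold change was 0.50 ± 0.177 (SE), with an edgeR adjusted p of 0.164.

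Rps27l (chr9:66946086-66949516), a target of p53, had 119 and 184 CPM in the young and 191 and 220 CPM in the old libraries of batch B. Batch A had 137 to 170 CPM and batch C 46.2 to 57.7 CPM. The log2 fold change between ages was 0.45 ± 0.172 (SE, adjusted p = 0.201 in edgeR). Rpl14, a core protein of the large subunit, had 518 and 681 CPM in the young and 715 and 744 CPM in the old libraries of batch B. Its log2 fold change was 0.29 ± 0.134 (SE, adjusted p = 0.298 in edgeR). For all 3 genes the old libraries of batch B lay above its young libraries. The distance to young library 2 was smaller than that between the young libraries for Rps27l and Rpl14. With batch B alone, the edgeR adjusted p was 0.294 for Rpl22l1, 0.484 for Rps27l and 0.671 for Rpl14.

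Blood cell markers had positive log2 fold changes in old cells for 11 of 11 tested, with a median of 0.70 and none called, and proliferation genes for 8 of 8, with a median of 0.57 and none called. Of the 8 MSC markers, 2 were called lower in old cells, Nt5e with a log2 fold change of -1.34 and Pdgfra with -0.86 (adjusted p = 0.00932 and 0.00591 in edgeR). Over all genes, 0.694% were called higher and 1.54% lower in old cells. The part of the marker and proliferation lists in the members' values was not tested.

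The age comparison depended on the young libraries of batch B. Library 2 was above library 1 for 79 of 80 members, the exception being Rpl39l, and library 1 was below both old libraries for 77 members. Library 2 was above both old libraries for 37 members, between them for 33 and below both for 10. These orders were counted over members only, so the corresponding shares over all genes are not known. Without young library 2 of batch B, edgeR called 43 members higher in old cells, with a median log2 fold change of 0.46, where 4.41% of all genes were called higher and 7.63% lower. Without young library 1, 1 member was called higher, namely Rpl39l, and the median was -0.04, where 0.491% of all genes were called higher and 0.743% lower. In these fits the remaining young library is assumed to vary like the other groups. The median SD of log2 CPM over members was 0.33 in the young libraries of batch B, 0.05 in its old libraries, 0.14 in batch A and 0.10 in batch C. Over all genes with at least 10 CPM, the corresponding medians were 0.19, 0.08, 0.13 and 0.07.

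**Figure D3:**
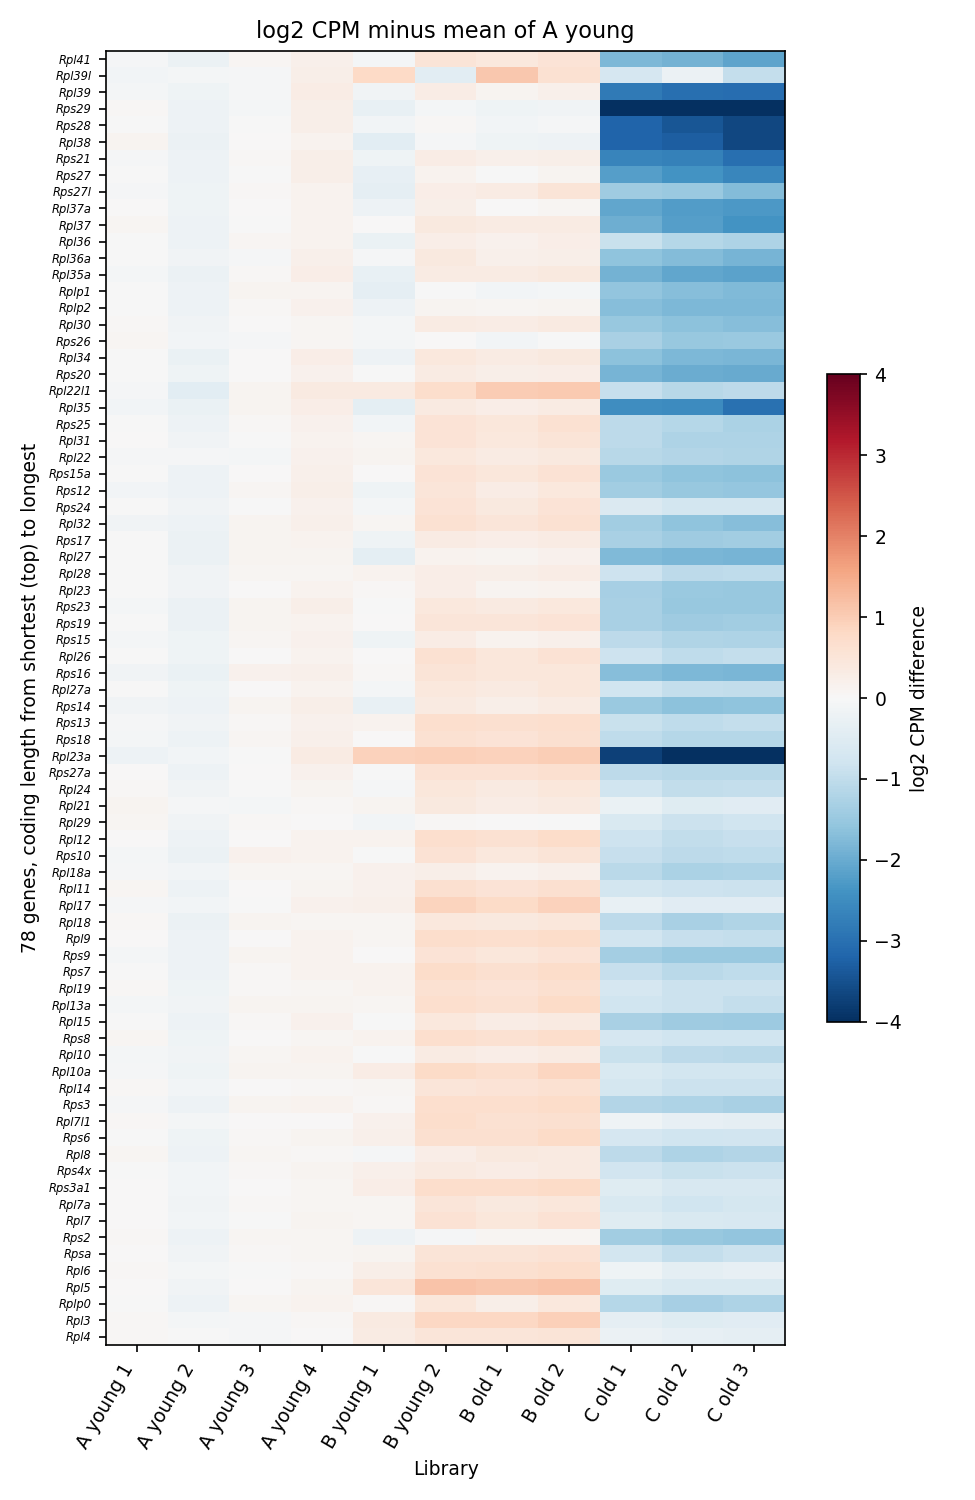
Difference of log2 CPM from the mean of batch A young (colour, blue lower and red higher, values beyond the ends of the scale take the end colour) for 78 members (rows, from the shortest to the longest coding length) in 11 libraries (columns). Library 1 of B young is paler than library 2 in most rows, and the 3 batch C columns are blue throughout, most strongly among the short genes.

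Young libraries of batches B and A were compared to see how far the members differ between batches at the same age. In batch B, 11 of 80 members were higher and 0 lower, against 9.39% of 14840 genes higher and 8.71% lower. The 11 members are 13.8% of those tested, which is near the share of all genes called higher. The median log2 fold change was 0.28 over members and 0.01 over all genes. Among them were Rpl23a, Rpl5, Rpl3, Rpl17, Rpl10a, Rps3a1, Rpl7l1, Rpl6 and Rpl4.

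Rpl5 binds a small ribosomal RNA together with Rpl11, and free Rpl5 inhibits Mdm2, the negative regulator of p53. It had 634, 563, 628 and 672 CPM in batch A and 874 and 1360 CPM in the young libraries of batch B, without overlap. Its log2 fold change was 0.86 ± 0.169 (SE, adjusted p = 0.00615 in edgeR). Rpl3, which lies close to the site of peptide bond formation, had 883 to 967 CPM and 1198 and 1660 CPM (log2 fold change 0.64 ± 0.151, SE, adjusted p = 0.0135 in edgeR). For both genes, library 1 of batch B was nearer to batch A than library 2.

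Rpl23a had 35.4, 37.2, 39.8 and 50.8 CPM in batch A and 76.2 and 79.0 CPM in the young libraries of batch B. Both libraries of batch B were alike and lay above all of batch A. The log2 fold change was 0.94 ± 0.145 (SE, adjusted p = 0.00207 in edgeR). Rpl17, a large subunit protein at the exit tunnel, had 416 to 496 CPM and 514 and 826 CPM, and rose by 0.61 ± 0.174 (SE, adjusted p = 0.0299 in edgeR). Of the stalk genes, none was called. Rplp1 had 1977 to 2461 CPM in batch A and 1770 and 2243 CPM in batch B, and these ranges overlapped.

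The number of members called between batches B and A varied with single libraries. It was 46 higher without young library 1 of batch B, where 12.8% of all genes were called higher and 13.7% lower. It was 1, namely Rpl23a, without library 2, where 2% of all genes were called higher and 1.36% lower. Without libraries 2 or 3 of batch A it was 4 and 3, where 6.67% and 4.47% of all genes were called higher, and Rpl23a and Rpl5 were in both sets. With a correction of each library for transcript length and GC content, 14 members were higher and 2, Rps27l and Rps29, lower, where 7.5% of all genes were called higher and 5.75% lower. In the main fit, 9.39% of all genes were called higher in batch B and 8.71% lower. The blood cell markers moved with this comparison, 4 of 11 being lower and 1 higher in batch B. So did 7 of 8 proliferation genes, which were lower. Their part in the members' difference was not tested.

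Old libraries of batches C and B were compared in the same way. All 80 members tested were lower in batch C in edgeR, where 32.6% of 15651 genes were called lower and 32.1% higher. The median log2 fold change was -1.60 over members, -1.69 over the small and -1.56 over the large subunit, and 0.02 over all genes. Mean CPM in the old libraries of batch B was 1.66 to 33.5 times that of batch C, with a median of 3.03 times. For 79 members, all 3 libraries of batch C were below all 8 other libraries, and the exception was Rpl39l. That order was not counted over all genes. Between the old libraries of batches C and B alone, all 80 members were separated, all of them lower in batch C. Of all genes tested, 76.2% were separated in either direction there, 5901 of 15651 being lower. All 80 were lower under each alternative tried, with medians between -1.64 and -1.18. Since batch C holds only old cells and batch A only young cells, the low levels in batch C cannot be assigned to age or batch beyond the comparison within old cells.

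The 5 members with the largest fall were Rpl23a, Rps29, Rps28, Rpl38 and Rpl39. Rpl23a (chr11:78180932-78183584) had 76.4 and 80.6 CPM in the old libraries of batch B and 3.05, 1.89 and 2.09 CPM in batch C. Its log2 fold change was -5.04 ± 0.128 (SE, adjusted p = 1.49e-10 in edgeR). Rps29 (chr12:69157722-69159186), a zinc-binding protein in the head of the small subunit, had 387 and 395 CPM in batch B and 24.8, 23.0 and 16.4 CPM in batch C. It fell by 4.18 ± 0.121 on the log2 scale (SE, adjusted p = 4.39e-10 in edgeR). Both genes were separated by far more than the spread within either group.

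Rps28 (chr17:33819027-33824562), a small subunit protein, had 497 and 515 CPM in batch B and 57.9, 49.7 and 42.1 CPM in batch C. The log2 fold change was -3.33 ± 0.103 (SE, adjusted p = 6.96e-10 in edgeR). Rpl38 (chr11:114668524-114672331), a large subunit protein known for its role in the translation of Hox messenger RNAs, had 318 and 318 CPM in batch B and 39.8, 36.8 and 28.8 CPM in batch C. It fell by 3.17 ± 0.102 (SE, adjusted p = 8.66e-10 in edgeR). Rpl39 (chrX:37082520-37085402), which lines the exit tunnel, had 557 and 600 CPM and 73.7, 64.8 and 62.4 CPM, and fell by 3.11 ± 0.0799 (SE, adjusted p = 1.49e-10 in edgeR). In each of these 3 genes the range of the 6 young libraries enclosed both old libraries of batch B. Rps28, for example, had 461 to 617 CPM in batch A and 492 and 546 CPM in the young libraries of batch B. Rpl23a, Rps29 and Rps28 were also the members whose log2 CPM varied most over the 11 libraries, with SDs of 2.17, 2.01 and 1.59.

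The smallest falls were those of Rpl21 and Rpl29, which fell by 0.73 on the log2 scale in both cases, and of Rpl4, which lines the narrow part of the exit tunnel. Rpl4 had 1284 and 1318 CPM in the old libraries of batch B and 787, 729 and 725 CPM in batch C (log2 fold change -0.80 ± 0.0694, SE, adjusted p = 1.07e-06 in edgeR). Among the most abundant members, Rplp1 had 2093 and 2133 CPM against 757, 696 and 674 CPM. Rplp0 had 3515 and 3948 CPM against 1342, 1184 and 1259 CPM. All 3 stalk genes fell, by 1.56 to 1.85 on the log2 scale. Rpsa, which assembles into the small subunit and is also called the laminin receptor, had 2505 and 2594 CPM against 1042, 905 and 967 CPM.

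Rps6, the ribosomal protein phosphorylated by S6 kinases, had 954 and 1044 CPM in the old libraries of batch B against 385, 351 and 359 CPM in batch C. Rps19, whose loss causes Diamond-Blackfan anaemia, had 842 and 882 CPM against 246, 227 and 230 CPM. Rps27a, made as a fusion with ubiquitin, had 819 and 856 CPM against 266, 257 and 253 CPM. Rpl11, the partner of Rpl5, had 661 and 705 CPM against 272, 251 and 250 CPM. In each of these the groups were far apart compared with their replicates. The 24 members of a list chosen to cover the stalk, both subunits and the shortest genes all fell, with a median of -1.57. Of the 4 paralogs tested, all fell. Rpl22l1 changed by -2.04, Rps27l by -1.96, Rpl39l by -1.44 and Rpl7l1 by -0.90 on the log2 scale.

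Several further members give the course over all groups. Rps14, a small subunit protein lost in a form of myelodysplastic syndrome, had 1405 to 1911 CPM in batch A, 1330 and 2096 CPM in the young and 1894 and 2053 CPM in the old libraries of batch B, and 523 to 573 CPM in batch C. Rps12 had 1108 to 1488 CPM in batch A, 1119 and 1797 CPM in the young and 1567 and 1695 CPM in the old libraries of batch B, and 440 to 484 CPM in batch C. Rps3, which lies at the entry of the messenger RNA channel, had 980 to 1254 CPM, then 1160 and 1812 CPM and 1791 and 1884 CPM, and 463 to 506 CPM in batch C. In all 3 genes young library 1 of batch B lay within or below batch A and the other 3 libraries of batch B above or near its upper end.

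Rpl10, which joins the large subunit late in its maturation, had 1001 to 1192 CPM in batch A, 1093 and 1371 CPM in the young and 1312 and 1365 CPM in the old libraries of batch B, and 519 to 593 CPM in batch C. Rpl13a, which also takes part in the control of inflammatory messenger RNAs, had 1096 to 1324 CPM, then 1288 and 1937 CPM and 1874 and 2057 CPM, and 634 to 701 CPM in batch C. Rps4x, encoded on the X chromosome, had 1101 to 1275 CPM, then 1370 and 1544 CPM and 1455 and 1528 CPM, and 643 to 697 CPM. Here both young libraries of batch B were above batch A. Rpl7, a large subunit protein, had 797 to 917 CPM, then 901 and 1272 CPM and 1165 and 1261 CPM, and 550.0 to 617 CPM. Rpl41 and Rps27, which are among the shortest members, had 203 to 248 CPM and 72.6 to 95.7 CPM in batch C. Their old libraries of batch B had 1152 and 1264 CPM and 441 and 482 CPM.

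Rpl22, Rpl23, Rpl26 and Rplp2 were also lowest in batch C. Rpl22, the core gene of the pair with Rpl22l1, had 432 and 454 CPM in the old libraries of batch B and 152 to 159 CPM in batch C. Rpl23, which like Rpl5 and Rpl11 can bind Mdm2, had 974 and 993 CPM and 312 to 354 CPM. Rpl26, whose pyrimidine run is shown above, had 785 and 853 CPM and 284 to 325 CPM. Rplp2, a partner of Rplp1 in the stalk, had 692 and 702 CPM and 186 to 202 CPM. Within batch C, library 1 had the highest CPM for 79 of 80 members, with Rpl39l as the exception. This was counted over members only, which are measured in the same libraries, and the share over all genes is not known.

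The falls were spread over a wide range. Beyond the 5 genes with falls of more than 3 on the log2 scale, 13 members fell by 2 to 3, among them Rps21, Rpl35, Rpl37, Rps27, Rpl41, Rpl35a and Rpl37a. Between 1.5 and 2 there were 31 members and between 1 and 1.5 there were 26. Rpl6, Rpl7l1, Rpl4, Rpl29 and Rpl21 fell by less than 1. Across the 81 members, log2 group means of CPM had Pearson correlations of 0.99 between batches A and B and of 0.89 to 0.92 with batch C. These are descriptions across genes that differ in length and are measured in the same libraries. Rpl3l, with 3 counts in all libraries together, is included and can weigh heavily in such a correlation.

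The size of the fall varied with the length of the coding sequence, which ranges from 75 nt in Rpl41 to 1257 nt in Rpl4. Members with a coding length of up to 300 nt had a median log2 fold change of -2.49 (11 members), those above 300 and up to 450 nt -1.82 (28 members), those above 450 and up to 600 nt -1.57 (19 members) and longer ones -1.41 (22 members). Spearman's rho with coding length across the 80 members was 0.60, which is a description across genes of the same libraries. It was 0.45 with the length of the principal transcript and 0.14 with that of the longest transcript, and coding length was taken up after the data were seen. With coding length, the value was 0.60 also between batches B and A in young cells and 0.21 between ages. Rpl23a, with a log2 fold change of -5.04 and a coding length of 468 nt, lies apart from this order. With GC content, rho was 0.07 between batches C and B. Across protein-coding genes that are not members, rho with coding length was 0.43 in that comparison. For those genes it was -0.18 between batches B and A and -0.19 between ages, opposite in sign to the members.

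**Figure D4:**
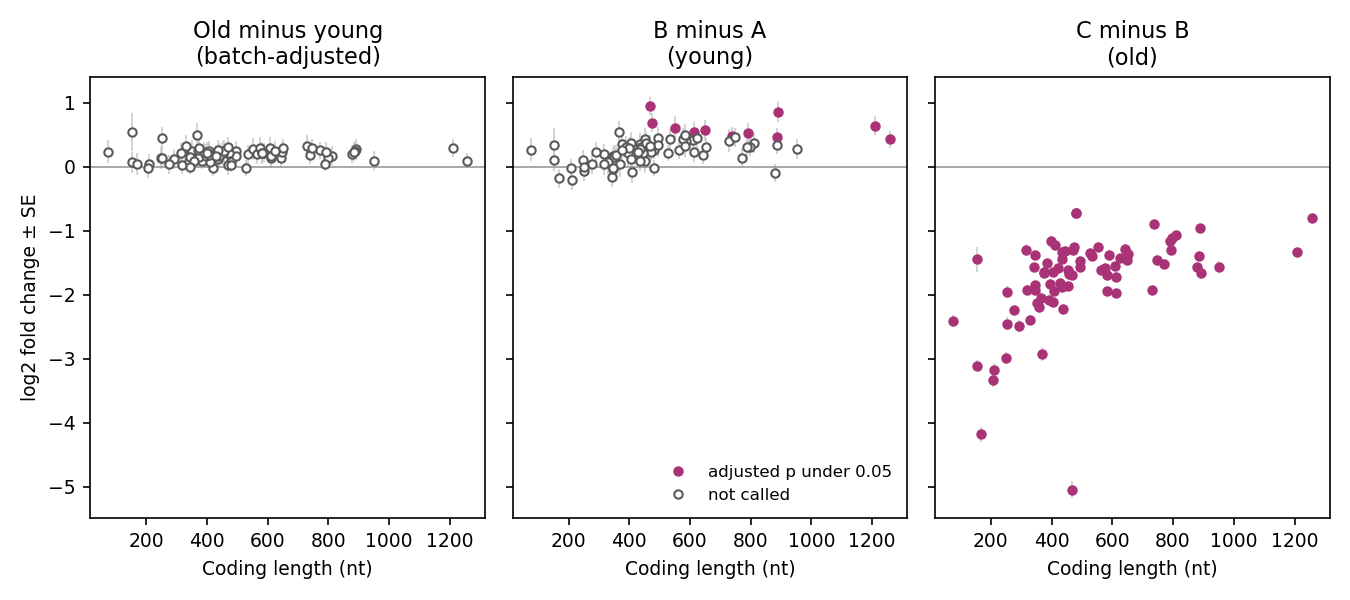
Log2 fold change with its SE (vertical axis) against coding length in nt (horizontal axis) for the 80 members tested in each of the 3 comparisons. Filled points have an adjusted p under 0.05. All points are below 0 between batches C and B, with the lowest values among genes under 300 nt and at Rpl23a.

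Short genes other than the members were lower in batch C too. Of protein-coding genes that are not members, 66.7% of 300 genes with a coding length of up to 300 nt were called lower in batch C, with a median log2 fold change of -0.73. In the next classes the share was 61.9% of 627 genes and 61.8% of 794 genes, with medians of -0.63 and -0.51. Above 600 nt it was 29.3% of 11661 genes, with a median of 0.08. The medians of the members were thus below those of other genes in each class. With a correction of each library for coding length and GC content, chosen after the data were seen, all 80 members remained lower in batch C, with a median of -1.18. Long non-coding RNAs retained in the nucleus also moved with this comparison. Malat1, Neat1, Xist and Kcnq1ot1 together had 156 and 175 CPM in the old libraries of batch B and 1165 to 1600 CPM in batch C, and 3 of 4 were called higher. Over all genes tested, 32.6% were called lower and 32.1% higher in batch C. The blood cell markers were lower for 11 of 11 tested, and 6 of 8 proliferation genes were higher. The part of these in the members' fall was not tested.

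Medians over members with and without a TOP-like start are given side by side. The median log2 fold change was -1.85 for 13 members with a C and at least 4 pyrimidines at the annotated start and -1.58 for 47 without. For 12 members with CTCTTTC near the start it was -1.63, and for 48 without -1.60. Rpl35, whose run of pyrimidines is shown above, fell by 2.92 on the log2 scale, Rpl35a by 2.39, Rpl36a by 1.93, Rpl26 by 1.44 and Rpl28 by 1.22. The runs shown for Rpl35a, Rpl36a and Rpl26 begin past the annotated start.

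Ribosome components outside the symbol rule went the same way. A list of 4 such genes, among them Fau, a small subunit protein, Rack1, a scaffold of the small subunit, and Rpl36al, a large subunit paralog, was lower in batch C in 4 of 4 cases. Rack1 had a mean of 2014 CPM in the old libraries of batch B and 536 CPM in batch C (log2 fold change -1.91 ± 0.0756, SE, adjusted p = 2.68e-09 in edgeR). The pseudogene Rps4l had a log2 fold change of -0.28 ± 0.101 (SE, adjusted p = 0.0304 in edgeR). Of 17 translation factors with TOP messenger RNAs, 16 were lower and 1 higher, with a median of -1.10. For both lists, the shares over all genes tested were 32.6% lower and 32.1% higher. Eef1a1, which brings transfer RNA to the ribosome, fell by 1.60 on the log2 scale, and Eef1b2, a subunit of its exchange factor, fell by 2.10.

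Of 34 ribosome biogenesis factors, 22 were lower and 4 higher in batch C, with a median of -0.44. Examples are Bop1, needed for processing of large subunit RNA, which fell by 1.10, and Rrn3, a factor of RNA polymerase I, which fell by 0.96 on the log2 scale. Of 18 genes tested that control TOP messenger RNA translation, 6 were lower and 7 higher, which is near the shares over all genes of 32.6% and 32.1%. Eif4ebp1, a repressor of cap-dependent translation that mTOR inhibits, fell by 1.44, and Mtor rose by 0.68 on the log2 scale. Of 8 genes of the ribosomal stress response, 6 were lower and none higher, and Cdkn1a, a p53 target, fell by 0.65. Between ages, none of the lists of translation factors, biogenesis factors, TOP control genes and stress response genes had a member past the threshold in edgeR. Between batches B and A in young cells, where 9.39% of all genes were called higher and 8.71% lower, 6 of 34 biogenesis factors, 4 of 17 translation factors and 2 of 8 stress response genes were higher and none of these lower. Of 18 TOP control genes, 4 were higher and 2 lower.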

How the data were processed

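Polyadenylated RNA of cultured mouse MSCs was sequenced in 11 libraries. The sample titles give the age and batch of each. The authors deposited raw counts per Ensembl gene. The builds mm10 and GRCm38 are given in the submitters' processing notes, and the aligner, counter and strand setting are not given in the sources used here. Reads of overlapping genes or near-identical copies can therefore have been shared or lost. Symbols and coding lengths were taken from GENCODE M21, which matched 28179 of 28222 genes.

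Raw counts of all genes were fitted in edgeR 4.0.16 (R 4.3.3) and tested by quasi-likelihood, with filterByExpr (minimum count 5), TMM factors and Benjamini-Hochberg adjustment (threshold 0.05, two-sided). Alternatives used limma 3.58.1, DESeq2 1.42.0, other scaling, filters and corrections, and left out each library. The test was also run on simulated counts with the same spread in every group. That check does not cover the larger spread of the young libraries of batch B. CPM used TMM-scaled totals, and shares used total counts. No library was left out of the main results.

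Genes named are the fixed members and paralogs, the 3 highest and lowest per kb, up to 5 called members per direction and comparison with the largest change (otherwise the 3 smallest p-values), and the 3 most variable. Rpl21, Rpl29, Rps16, Rpl15, Rpl35, Rpl35a, Rpl36a and Rpl28 were named after their values were seen. The values of some genes are not reported here. Members and lists were chosen with earlier results of these data known.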

Additional observations from a re-analysis of the deposited data

Results flagged for a closer look

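In the group of 4 libraries, batch A young, levels of the named members and summary values were examined for a library far from the others. Dixon's criterion was used, which flags about 1 in 20 groups by chance. Of 38 values examined, 3 were flagged, and Rpl14 lay at the limit itself. Rpl22 had 389 CPM in library 4, above the other 3 libraries. Rpl39l had 10.0 CPM in library 4, also above the others. Rpl14 had 451.3 CPM in library 2, below the other 3 libraries.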

How the results depend on the processing

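The fall of all 80 tested members in batch C was the same under each of 15 alternatives, including total counts, which moved the median of all genes to 0.22 on the log2 scale and that of the members to -1.40. Between ages, 0 members were called under 20 of 23 alternatives. There were 2 without a filter, Rpl22l1 and Rps27l, and 0 to 43 when each library was left out in turn. In the age fit with no filter, 1.8% of all genes were called higher and 2.08% lower, against 0.694% and 1.54% in the main fit. Without the batch term, the log2 fold changes reversed to -0.049 for Rpl22l1, -0.41 for Rps27l and -0.18 for Rpl14. The cause was not tested, and age and batch are mixed in that fit. Between batches B and A, 18 members were called higher by DESeq2, 19 with total counts and 21 without a filter, against 11, where 9.28%, 13.5% and 6.69% of all genes were called higher. With the correction for coding length and GC content, added after the data were seen, 22 were called, 21 higher and 1 (Rpl30) lower, where 7.61% of all genes were called higher and 5.84% lower. Leaving out each library gave 1 to 46. Whether replicate numbers pair the samples is not known. Same-numbered libraries had correlations of -0.11 to 0.04 between groups. These cannot decide it, since each involves a batch B group of only 2 libraries. With the replicate number as a block, 3 members were called between batches B and A (Rpl22l1, Rpl23a and Rpl5, all higher, where 1.91% of all genes were called higher and 2.81% lower), and 0 and 80 in the other comparisons. With TMM-scaled totals, the share of counts was 5.56% in batch A and 2.48% in batch C. By coding length, Rpl41 was the highest member and Rpl23a among the 3 lowest. The cause of these differences was not tested. Depth limits Rpl3l most, and also Rpl39l and, in batch C, Rpl23a.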
